A study of Homo sapiens with 6 samples.

Results

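The AP-1 subunit genes are 10 rows of the expression table of A673 cells, chosen by symbol: JUN, JUNB, JUND, FOS, FOSB, FOSL1, FOSL2, ATF3, BATF3 and MAFF, out of 62700 rows. All 10 passed the filter on low counts, as did 28485 rows in all. RNA was sequenced from 3 libraries labelled EWS-FLI1 knockout and 3 labelled EWS-FLI1 parental control with the wildtype genotype, all of A673, a human Ewing sarcoma line grown in DMEM with fetal bovine serum. EWS-FLI1 is the fusion of EWSR1 with the ETS factor FLI1 that drives this tumour. The labels state neither how the fusion was knocked out nor whether the knockout cells are 1 clone or a pool, so a difference between clones and the loss of the fusion cannot be told apart. Whether replicates came from separate cultures is not stated either, and the p-values therefore cover the spread among these libraries only, which may be technical.

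AP-1 is a dimer of basic leucine zipper (bZIP) proteins. Jun proteins pair with each other or with Fos proteins, while Fos proteins need a Jun partner, and the dimer binds the TRE element in genes of growth, migration and matrix turnover. ATF3 and BATF3 also pair with Jun proteins, and the small Maf protein MAFF lacks a transactivation domain of its own. Many of these genes are immediate-early genes, transcribed within minutes of a growth factor or stress signal that reaches them through the ERK, JNK and p38 MAP kinases.

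Upstream sequence was compared for FOSL2 and JUN, which showed the largest rises, for JUNB and JUND, which share a family with JUN but rose less, and for FOS, the founding Fos gene. The 250 bases before the RefSeq start (GRCh38.p14) are printed 5′ to 3′ in the direction of transcription, with matches to the searched motifs in capitals. FOSL2 lies at chr2:28392608-28392857 on the plus strand, JUN at chr1:58784048-58784297 on the minus strand, JUNB at chr19:12791236-12791485 on the plus strand, JUND at chr19:18281623-18281872 on the minus strand and FOS at chr14:75278578-75278827 on the plus strand.
FOSL2: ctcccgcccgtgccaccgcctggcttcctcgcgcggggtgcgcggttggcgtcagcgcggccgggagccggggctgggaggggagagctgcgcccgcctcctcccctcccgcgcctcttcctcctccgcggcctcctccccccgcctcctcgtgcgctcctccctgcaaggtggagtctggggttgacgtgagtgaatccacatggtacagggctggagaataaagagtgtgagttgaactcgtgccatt
JUN: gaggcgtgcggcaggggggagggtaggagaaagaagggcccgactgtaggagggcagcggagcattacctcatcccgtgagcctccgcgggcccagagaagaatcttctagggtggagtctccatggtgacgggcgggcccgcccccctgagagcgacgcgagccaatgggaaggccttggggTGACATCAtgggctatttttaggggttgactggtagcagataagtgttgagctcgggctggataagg
JUNB: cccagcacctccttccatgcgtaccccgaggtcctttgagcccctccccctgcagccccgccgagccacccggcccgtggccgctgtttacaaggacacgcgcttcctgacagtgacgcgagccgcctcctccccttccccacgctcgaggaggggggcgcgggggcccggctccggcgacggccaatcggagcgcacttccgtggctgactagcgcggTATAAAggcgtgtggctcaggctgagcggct
JUND: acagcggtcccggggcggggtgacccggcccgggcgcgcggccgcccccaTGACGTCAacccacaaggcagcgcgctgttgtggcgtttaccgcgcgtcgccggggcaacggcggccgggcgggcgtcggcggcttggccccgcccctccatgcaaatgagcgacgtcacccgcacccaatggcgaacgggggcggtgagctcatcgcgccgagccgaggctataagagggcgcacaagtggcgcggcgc
FOS: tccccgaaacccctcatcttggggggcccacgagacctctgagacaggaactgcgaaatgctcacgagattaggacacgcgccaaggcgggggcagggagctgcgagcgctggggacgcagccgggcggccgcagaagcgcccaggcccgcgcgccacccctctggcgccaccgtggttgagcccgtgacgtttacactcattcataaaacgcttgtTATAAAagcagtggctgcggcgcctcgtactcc

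The capitals mark TGACATCA in JUN, TGACGTCA in JUND and TATAAA in JUNB and FOS. The motifs searched on both strands were the TRE, as TGANTCA, its longer relatives TGACGTCA and TGACATCA, the CArG box bound by SRF, TATAAA, and GGAAGGAA, a pair of the GGAA units that EWS-FLI1 binds in repeats. None of these overlapped another in the windows shown. RefSeq promoters were matched for 8 of the 10 genes, in 10 windows, with FOSL1 and BATF3 unmatched. TGACATCA, the TRE-like element through which the JUN promoter is known to bind Jun and ATF2, lay from -67 to -60 of the JUN start and from -123 to -116 of an ATF3 start, and 2.37% of 35116 windows of that length held it. TGACGTCA lay from -200 to -193 in JUND and from -54 to -47 at a MAFF start, against 1.65% of all windows. TATAAA was present in windows of FOS, FOSB, JUNB and ATF3, against 10.7% of all windows. The letters TGANTCA (6.57% of all windows), GGAAGGAA (3.06%) and the CArG box (1.16%) were in none of the 10 windows, which says nothing of sites outside them.

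The libraries held between 301605666 and 310465330 estimated counts in knockout and between 324069161 and 342624492 in parental cells. Levels below are TMM-scaled CPM. Fold changes are given on the log2 scale as knockout over parental, with SE for their standard error in the edgeR fit. The deposited counts are per gene, so reads of the fusion transcript add to EWSR1 and FLI1, and neither level shows whether the fusion was lost. EWSR1 stood at 245 ± 6.21 CPM in knockout and 293 ± 6.20 CPM in parental libraries, and FLI1 at 53.1 ± 2.11 and 40.7 ± 1.15 CPM (SD, n = 3 each). Of 6 genes listed as activated by the fusion all 6 fell, with summed levels of 24.0 to 24.4 CPM in knockout and 668 to 677 CPM in parental libraries. Of 6 listed as repressed 5 rose, with summed levels of 3803 to 4151 CPM in knockout and 1323 to 1367 CPM in parental libraries. CAV1, which has also been described as activated by the fusion, fell. It made up 1280 to 1324 CPM of the parental sum and 316 to 340 CPM of the knockout sum. THBS1 made up 2108 to 2309 CPM of the knockout sum and 8.82 to 9.88 CPM of the parental one. Summed markers of leukocytes (5 genes) were 1.70 to 2.06 CPM in knockout and 0.381 to 0.476 CPM in parental libraries. Those of epithelial cells (5 genes) were 0.194 to 0.323 CPM in knockout and 3.92 to 4.35 CPM in parental libraries, and those of endothelial cells (5 genes) 8.64 to 9.35 and 0.820 to 0.910 CPM. PECAM1 made up 7.97 to 8.73 CPM of the endothelial sum in knockout libraries and 0.123 to 0.180 CPM in parental ones; of the 5 genes 2 rose, 1 fell and 2 did not pass, and their median log2 fold change was -0.18. CD3E was at 0 in 3 of the 6 libraries and no marker at 0 in all, and the part of such cells in the results was not tested.

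All 10 AP-1 subunit genes rose in the knockout libraries, and in each of them every knockout library lay above every parental one. At an edgeR adjusted p under 0.05, 36.3% of all tested genes were called higher and 37.5% lower, and in 37.1% the knockout libraries lay wholly above the parental ones. The median log2 fold change of the 10 genes was 2.23, against -0.06 over all tested genes, and the 10 values ran from 0.81 for ATF3 to 7.34 for FOSL2. A log2 fold change above 1 was reached by 7 of them and by 21.8% of all tested genes in that direction. The genes together took 0.139% to 0.146% of all counts in knockout and 0.0311% to 0.0351% in parental libraries. RNA taken from a whole culture cannot tell more cells with a transcript from more of it per cell.

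**Figure D1:**
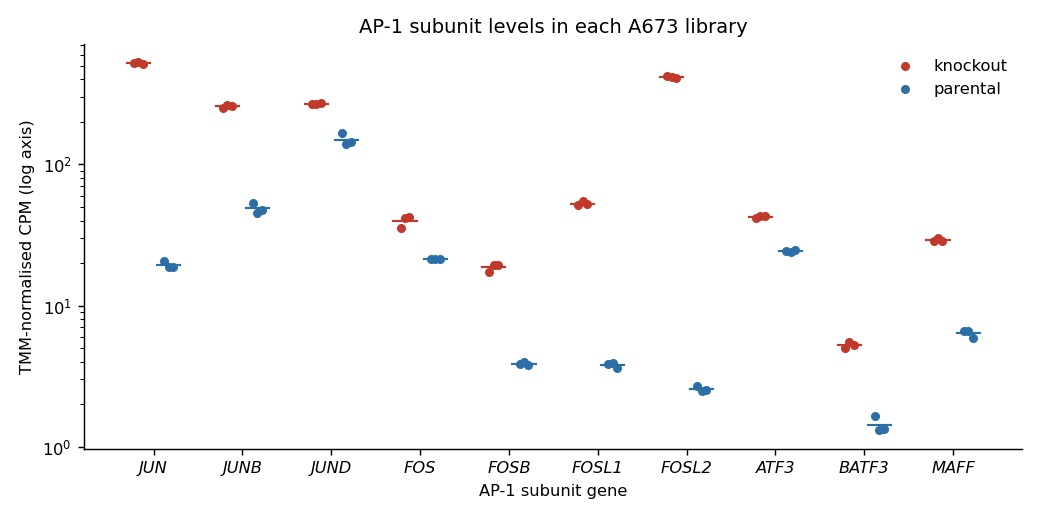
Level of each AP-1 subunit gene in each library (TMM-normalised CPM, log axis); points are the 3 knockout (red, left) and 3 parental (blue, right) libraries of a gene and lines their means. The genotypes are apart in all 10 genes, most in FOSL2, with means of 415 CPM in knockout and 2.56 CPM in parental libraries, and least in ATF3, with 42.5 and 24.3 CPM.

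Among the Jun genes the rise was graded from JUN through JUNB to JUND. JUN, the Jun protein that JNK phosphorylates and the strongest activator among the Jun proteins, held 518, 528 and 511 CPM in the knockout libraries, against 20.7, 18.8 and 18.8 CPM in the parental ones. The groups were far apart, and parental replicate 1 was the highest of its group. JUN rose 26.7-fold (log2 fold change 4.74, SE 0.06, edgeR adjusted p = 3.33e-25), and 4.22% of tested genes had a larger rise.

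JUNB, a weaker activator that can oppose JUN, held 250.04, 264 and 261 CPM in knockout libraries, against 53.7, 45.4 and 47.6 CPM in parental ones. Its rise was 5.28-fold (log2 fold change 2.40, SE 0.06, edgeR adjusted p = 4.54e-19), with no overlap between the genotypes. JUNB shares 259 exon bases, 14.2% of its own, with HOOK2 on the opposite strand. Since the labels state no strand-specific protocol, reads there may not be told apart; HOOK2 itself held 27.7 to 34.0 CPM in knockout and 34.4 to 39.5 CPM in parental libraries.

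JUND, the Jun gene that many resting cells keep on, held 267, 269 and 271 CPM in knockout libraries, against 168, 139 and 144 CPM in parental ones. It rose 1.79-fold (log2 fold change 0.84, SE 0.06, edgeR adjusted p = 3.48e-10). The parental libraries were spread more widely, with a coefficient of variation of 10.3%, against 0.779% in knockout libraries. The median over 14742 genes of at least 1 CPM was 4.44% in knockout and 4.28% in parental libraries.

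Summed over the family, Jun transcripts came to 1046 ± 13.01 CPM in knockout and 218 ± 20.8 CPM in parental libraries (SD, n = 3 each), and the makeup of that sum changed with genotype. JUN made up 49.6% ± 0.561 of the Jun counts in knockout and 8.92% ± 0.354 in parental libraries. JUND made up 25.7% ± 0.325 in knockout and 68.7% ± 0.507 in parental libraries, while JUNB differed little, at 24.7% ± 0.465 and 22.4% ± 0.245. These shares do not depend on how libraries are scaled. In each of the 3 genes the genotypes did not overlap, which with 3 against 3 gives a two-sided exact permutation p of 0.1, the smallest that this design allows (0.1 after adjustment over the 7 shares tested in both families). With counts divided by the length of the longest coding transcript the shares in knockout libraries were nearly equal, at 33.9% for JUN, 32.8% for JUNB and 33.4% for JUND, against 4.87%, 23.8% and 71.3% in parental libraries.

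Of the Fos genes, the Fos-related antigens FOSL2 and FOSL1 rose most. Their proteins (Fra-2 and Fra-1) lack the strong C-terminal activation domain of FOS and are known from migrating, mesenchymal and bone-forming cells. FOSL2 held 422, 416 and 408 CPM in knockout libraries, against 2.69, 2.49 and 2.50 CPM in parental ones. The spread within either genotype was a few percent, and the rise was 162-fold (log2 fold change 7.34, SE 0.06, edgeR adjusted p = 5.24e-27). Only 0.976% of tested genes rose by more.

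In estimated counts, FOSL2 had 107903, 107842 and 112464 in knockout and 1023, 941 and 998 in parental libraries. The parental mean was thus 0.902% of the knockout mean. Among 3248 genes with at least 20000 counts on average in knockout libraries, the 20 with the lowest such shares had a median of 0.586%, and FOSL2 stood 73rd from the lowest. Whether the parental count of FOSL2 includes a floor of that size was not tested. The antisense gene FOSL2-AS1 shares no exon base with FOSL2, and held 0.128 to 0.200 CPM in knockout and 0.0133 to 0.0383 CPM in parental libraries.

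FOSL1 held 51.6, 54.7 and 52.3 CPM in knockout libraries, against 3.83, 3.90 and 3.63 CPM in parental ones. Its rise was 13.95-fold (log2 fold change 3.80, SE 0.06, edgeR adjusted p = 1.33e-23), and the libraries of a genotype lay close together.

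FOSB, which is induced with FOS and yields a truncated form known for its stability in neurons, held 17.2, 19.5 and 19.4 CPM in knockout libraries. The parental libraries held 3.87, 3.95 and 3.78 CPM, and FOSB rose 4.83-fold (log2 fold change 2.27, SE 0.07, edgeR adjusted p = 1.75e-18). Counts per gene do not tell the full-length and truncated forms apart. No exon base of FOSB overlapped the neighbouring opposite-strand gene ERCC1.

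FOS held 35.4, 41.4 and 42.5 CPM in knockout libraries, against 21.5, 21.4 and 21.5 CPM in parental ones. It rose 1.85-fold (log2 fold change 0.89, SE 0.06, edgeR adjusted p = 3.47e-11), the smallest rise of the Fos genes. Knockout replicate 1 was the lowest of its group in both FOS and FOSB, and also in JUNB, JUND, FOSL1, ATF3 and BATF3. It was in the middle in JUN and MAFF and the highest in FOSL2. The coefficient of variation of FOS was 9.61% in knockout and 0.238% in parental libraries. All knockout libraries nonetheless lay above all parental ones.

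The summed Fos transcripts came to 527 ± 4.77 CPM in knockout and 31.7 ± 0.230 CPM in parental libraries (SD, n = 3 each), a ratio of 16.6. FOSL2 made up 78.9% ± 1.16 of the Fos counts in knockout and 8.08% ± 0.312 in parental libraries. FOS made up 7.55% ± 0.735 in knockout and 67.8% ± 0.602 in parental libraries. FOSB took 3.55% ± 0.244 in knockout and 12.2% ± 0.211 in parental libraries, and FOSL1 took 10.0% ± 0.241 and 11.9% ± 0.372. The genotypes did not overlap in any of these 4 shares (two-sided exact permutation p = 0.1 for each, the smallest possible).

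Counted per length, FOSL2 took 53.0% of the Fos transcripts in knockout and 2.80% in parental libraries. FOSL1 then took 27.1% in knockout and 16.6% in parental libraries, so that the direction of the FOSL1 share depends on whether the long FOSL2 transcript (6708 bases, against 1669 for FOSL1) is weighted by length. FOS took 15.7% and 73.0%, and FOSB 4.23% and 7.52%, in knockout and parental libraries by this measure.

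**Figure D2:**
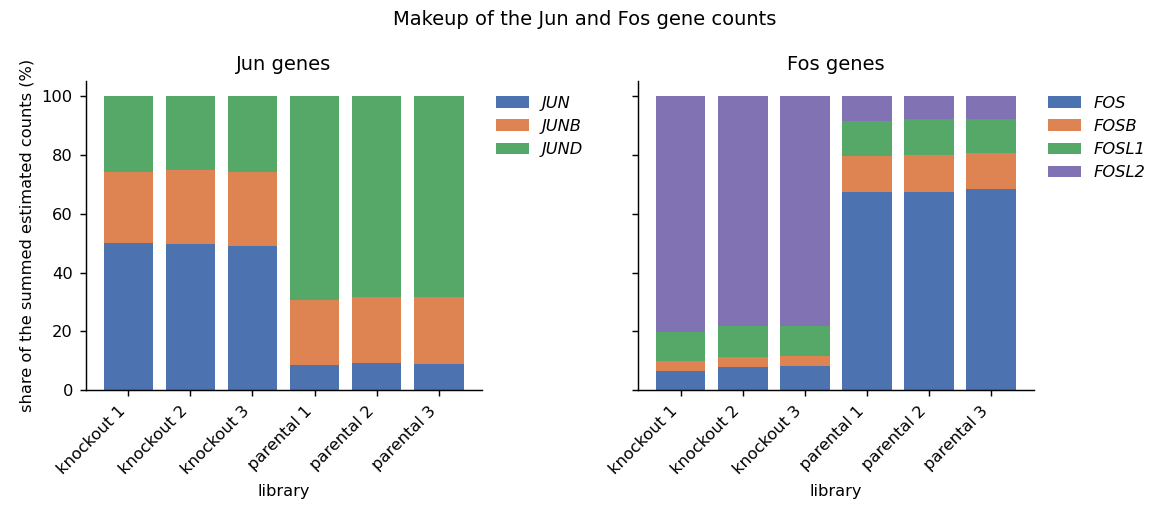
Share of each gene in the summed estimated counts of the 3 Jun genes (left) and 4 Fos genes (right), in percent, with 1 bar per library. JUN and FOSL2 make up 49.6% and 78.9% on average in knockout libraries, against 8.92% and 8.08% in parental libraries, where JUND and FOS lead.

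The remaining subunits rose too. MAFF, which pairs with CNC factors as well as with AP-1 proteins, held 28.6, 29.9 and 28.6 CPM in knockout libraries, against 6.64, 6.57 and 5.91 CPM in parental ones. It rose 4.55-fold (log2 fold change 2.19, SE 0.06, edgeR adjusted p = 5.99e-19). The gene PLA2G6 runs on the opposite strand across the MAFF start but shares no exon base with it. PLA2G6 held 10.3 to 14.4 CPM in knockout and 29.3 to 34.2 CPM in parental libraries.

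BATF3, a Jun partner best known from dendritic cells, held 4.97, 5.48 and 5.21 CPM in knockout libraries, against 1.64, 1.30 and 1.34 CPM in parental ones. Parental replicate 1 was again the highest of its group, and the rise was 3.65-fold (log2 fold change 1.87, SE 0.10, edgeR adjusted p = 1.73e-13). Its SE was the largest of the 10 genes, and its counts were the fewest.

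ATF3, a stress-induced factor that as a homodimer represses, held 41.5, 43.1 and 42.9 CPM in knockout libraries, against 24.5, 23.9 and 24.6 CPM in parental ones. It rose 1.75-fold (log2 fold change 0.81, SE 0.05, edgeR adjusted p = 1.37e-12), the smallest rise of all 10 genes, and 25.5% of tested genes rose by more.

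**Figure D3:**
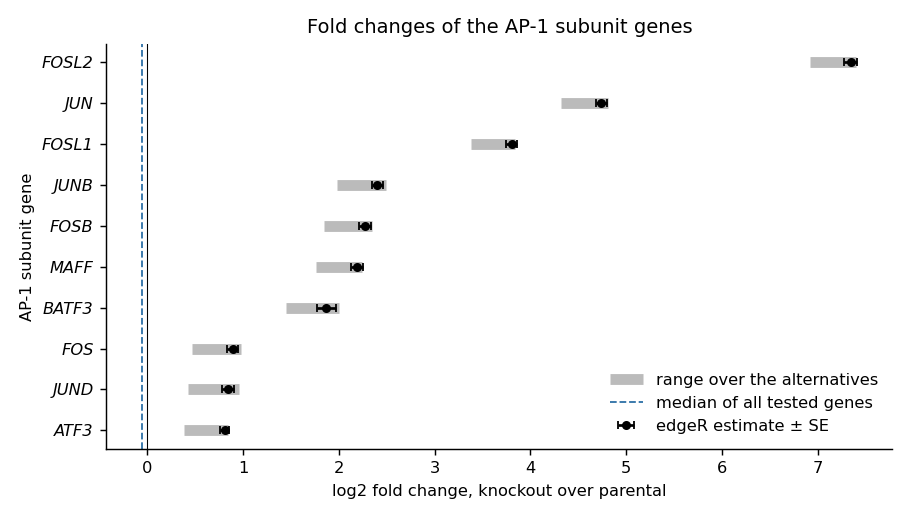
Log2 fold change of each AP-1 subunit gene, knockout over parental, with its SE (points and bars) and the range over the 15 alternative analyses (grey); the dashed line is the median of all tested genes. The values run from 0.81 for ATF3 to 7.34 for FOSL2, and the lowest end of any grey bar is 0.38, for ATF3 with total counts only.

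Scaling moved the sizes but not the directions. With libraries scaled by total count only, the median of all tested genes shifted by -0.42 on the log2 scale. Relative to zero on that scale, ATF3, JUND and FOS had log2 fold changes of 0.38, 0.42 and 0.47, and each of the 10 genes still passed. Over the 15 alternatives the highest adjusted p of any of them was 0.00013, for FOS in the edgeR fit without parental replicate 1.

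Per kilobase of the longest coding transcript, the order of levels differed between the genotypes. In knockout libraries JUN, JUND and JUNB came first at 147 ± 2.42, 144 ± 1.12 and 142 ± 3.99 CPM per kilobase, with ranges that overlapped from each to the next, so the 3 did not differ beyond their spread. FOSL2 followed at 61.9 ± 1.05 and FOSL1 at 31.6 ± 0.970 CPM per kilobase. ATF3 at 20.9, FOS at 18.4 and MAFF at 11.7 CPM per kilobase came next, and BATF3 and FOSB, at 5.32 ± 0.259 and 4.95 ± 0.343, overlapped.

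In parental libraries JUND came first at 80.5 ± 8.27 CPM per kilobase, followed by JUNB at 26.9 ± 2.35, ATF3 at 12.0 ± 0.168 and FOS at 9.95 ± 0.0236. JUN came after these at 5.49 ± 0.315, then MAFF at 2.56, FOSL1 at 2.27, BATF3 at 1.46 and FOSB at 1.02 CPM per kilobase. FOSL2 was last at 0.382 ± 0.0164 CPM per kilobase, and no neighbours in this order overlapped (SD, n = 3 throughout).

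Other bZIP genes that can pair with AP-1 proteins moved less as a list. Of 10 such genes 9 were tested, 7 rose and 1 fell, and the median log2 fold change was 0.32. For this list and those that follow, the shares over all tested genes were 36.3% called higher and 37.5% lower. CREB5, a relative of ATF2, stood at 57.4 ± 3.83 CPM in knockout and 5.50 ± 0.445 CPM in parental libraries (log2 fold change 3.38, SE 0.07, edgeR adjusted p = 5.44e-20). The small Maf genes MAFK and MAFG rose with log2 fold changes of 1.79 (SE 0.09) and 0.44 (SE 0.05), the second of which was 0.01 with total counts only and then did not pass (edgeR adjusted p = 0.746). MAF, at -0.54 (SE 0.32), did not pass.

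Genes of the MAP kinase route to AP-1 changed in both directions. Of 18 such genes 10 rose and 5 fell around a median log2 fold change of 0.20, and with total counts only 5 rose and 11 fell. SRF, which drives FOS through the CArG box, and its partner ELK4 rose by 1.04 (SE 0.05) and 1.06 (SE 0.06) on the log2 scale, and the related ELK3 by 0.81 (SE 0.05). Of the JNK genes, whose kinases phosphorylate JUN, MAPK9 and MAPK10 fell with log2 fold changes of -0.78 (SE 0.05) and -1.16 (SE 0.09). MAPK8 had 0.32 (SE 0.05), and -0.11 with total counts only. MAP2K6, an activator of p38, fell to 9.23 ± 0.546 CPM in knockout, against 35.7 ± 1.47 CPM in parental libraries (-1.95, SE 0.06). The ERK genes MAPK7 and MAPK3 fell with log2 fold changes of -0.60 (SE 0.05) and -0.19 (SE 0.05). MAP3K1, MAP2K4 and MAP2K7 did not pass, at 0.15 (SE 0.07), -0.11 (SE 0.05) and 0.05 (SE 0.05).

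The dual-specificity phosphatases, which switch MAP kinases off and are themselves induced by MAP kinase signalling, were mostly higher. Of 9 such genes 8 rose and 1, DUSP2 at -0.65 (SE 0.18), fell, around a median log2 fold change of 2.06. DUSP10, which acts on JNK and p38, stood at 32.2 ± 0.498 CPM in knockout and 0.156 ± 0.00997 CPM in parental libraries (7.69, SE 0.08, edgeR adjusted p = 3.35e-26). That rise exceeded the one of FOSL2 (7.34), and whether the parental level of DUSP10 includes a floor was not tested either. DUSP4 stood at 441 ± 15.3 and 11.5 ± 0.666 CPM (5.26, SE 0.06), and DUSP8 at 22.4 ± 1.11 and 1.12 ± 0.115 CPM (4.32, SE 0.08), in knockout and parental libraries. DUSP16 rose by 2.71 (SE 0.06) on the log2 scale and DUSP1 by 2.06 (SE 0.05).

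Of 4 genes whose products take part in the degradation of Jun proteins, the ubiquitin ligase gene ITCH rose (0.30, SE 0.05) and DET1 fell (-1.04, SE 0.07). FBXW7 and COP1 did not pass, at 0.11 (SE 0.05) and -0.09 (SE 0.05). The median of this list was 0.01, and the direction of ITCH and FBXW7 turned with total counts only, to -0.13 and -0.31.

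Of 14 immediate-early genes outside AP-1 6 rose, 5 fell and 3 did not pass, around a median log2 fold change of 0.01. These shares lie near those of all tested genes, 36.3% higher and 37.5% lower. CCN1 stood at 470 ± 11.3 CPM in knockout and 8.47 ± 0.156 CPM in parental libraries (5.79, SE 0.06, edgeR adjusted p = 1.28e-26), and IER3 at 1095 ± 38.1 and 26.8 ± 0.988 CPM (5.35, SE 0.06). NR4A2 and ZFP36 rose by 4.22 (SE 0.08) and 2.95 (SE 0.06) on the log2 scale. The 5 that fell were NR4A3 at -3.73 (SE 0.17), EGR3 at -3.17 (SE 0.09), NR4A1 at -1.80 (SE 0.12), BTG2 at -0.99 (SE 0.09) and IER2 at -0.45 (SE 0.05). EGR1, which SRF drives as it does FOS, had 0.39 (SE 0.05), and -0.032 with total counts only. EGR2, IER5 and MYC did not pass, at -0.03 (SE 0.07), 0.02 (SE 0.05) and -0.01 (SE 0.05).

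Knockout replicate 1 was the lowest of its group in ZFP36 (35.8, 40.4 and 42.2 CPM), NR4A1 (8.41, 11.02 and 11.6 CPM) and EGR1 (338, 371 and 366 CPM). Among the subunits it was so in FOS, FOSB, JUNB, JUND, FOSL1, ATF3 and BATF3, but not in JUN, MAFF or FOSL2. The same held in EGR2, EGR3, IER2, IER5, NR4A2 and GADD45B. In IER3, CCN1 and MYC it was in the middle. In NR4A3 (0.587, 0.390 and 0.319 CPM) and BTG2 (2.41, 2.40 and 2.26 CPM) it was the highest. Whether handling of that library bears on these levels was not tested. Without knockout replicate 1 all 10 AP-1 subunit genes rose, as with it.

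Of 21 genes known as AP-1 targets in other cells 16 rose, 4 fell and MMP13 did not pass, where 36.3% of all tested genes were called higher and 37.5% lower. The median log2 fold change of the list was 2.14. PLAU, the urokinase protease, stood at 409 ± 7.49 CPM in knockout and 2.61 ± 0.190 CPM in parental libraries (7.29, SE 0.07, edgeR adjusted p = 7.66e-27). The chemokine gene CXCL8 stood at 284 ± 10.6 and 1.42 ± 0.0412 CPM (7.65, SE 0.07), CCL2 at 411 ± 24.5 and 1.63 ± 0.0893 CPM (7.98, SE 0.07), and the hyaluronan receptor gene CD44 at 969 ± 56.7 and 4.08 ± 0.222 CPM (7.89, SE 0.07). CXCL8, CCL2 and CD44 thus rose by more than FOSL2 (7.34). Whether the parental levels of these genes and PLAU include a floor, as raised for FOSL2, was not tested. MMP1, a collagenase with a well-studied TRE in its promoter, rose by 2.14 (SE 0.05) on the log2 scale. The 4 that fell were MMP10 at -4.38 (SE 0.11), the cyclin gene CCND1 at -1.80 (SE 0.05), MMP9 at -1.001 (SE 0.23) and TIMP1 at -0.17 (SE 0.05). The call of TIMP1 was lost without knockout replicate 3 (-0.13, edgeR adjusted p = 0.0521). Several of these genes also answer to NF-kB or to the fusion itself, and the part of AP-1 in their levels was not measured.

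**Figure D4:**
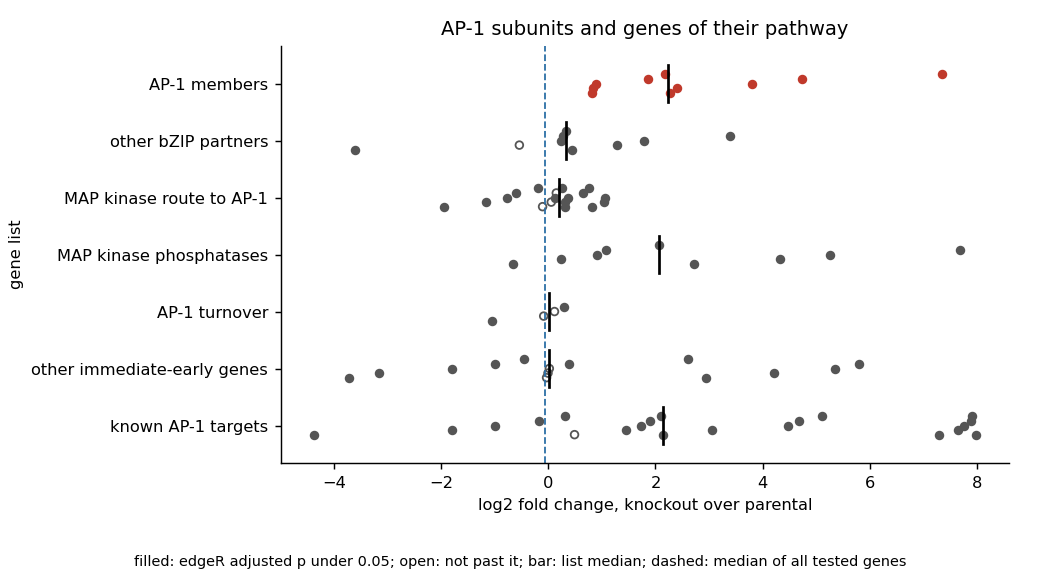
Log2 fold change, knockout over parental, of the AP-1 subunit genes and of each gene of 6 related lists; filled points passed an edgeR adjusted p under 0.05, open points did not, bars are list medians and the dashed line is the median of all tested genes. The subunits all lie above zero with a median of 2.23, the phosphatases and known targets have medians of 2.06 and 2.14, and the medians of the other 4 lists lie between 0.01 and 0.32.

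The genes whose profiles over the 6 libraries were most like those of the 3 most changed subunits were sought among genes of at least 5 CPM, by the root mean square difference of mean-centred log2 levels. Since the 6 libraries form 2 groups, this measure mostly reads the size of the fold change. For FOSL2 they were TGFBI (difference 0.031), the matrix gene MATN2 (0.038) and the pseudogene WFDC21P (0.040), with TGFBI at 389 CPM in knockout and 2.47 CPM in parental libraries. For JUN they were GPR176 (0.045), the immunoproteasome gene PSMB8 (0.049) and the kinase gene PIK3CD (0.054). For FOSL1 they were TAP1, the peptide transporter of antigen presentation (0.029), MAP3K14, the NF-kB-inducing kinase (0.035), and UST (0.037).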

How the data were processed

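Polyadenylated RNA was sequenced on an Illumina NovaSeq, per the labels' protocols. The authors deposited estimated counts per gene, made with kallisto 0.48.0 on hg38, per the submitters' processing notes. The annotation release and the summing of transcripts to genes are not stated in these sources. kallisto splits reads among transcripts by likelihood.

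Rounded counts were analysed with edgeR 4.0.16 (R 4.3.3): filterByExpr (minimum count 10, total 15), TMM scaling, a robust quasi-likelihood fit with genotype as its only term, and two-sided Benjamini-Hochberg adjustment at 0.05 over all 28485 tested genes. The procedure was tested on simulated counts. edgeR put the biological coefficient of variation at 7.53%. The floor of 3 counts is 0.00752 to 0.0117 CPM, for counting error only. Within a genotype, chi-square per degree of freedom between libraries was 11.1 to 78.1, so no library repeats another. Family shares were tested by exact permutation (scipy 1.17.1). Transcript lengths and loci are from GENCODE 29 (GRCh38), promoters from RefSeq. The counted rows carry later identifier versions than GENCODE 29 for each subunit gene. The counted transcripts may thus differ from those whose lengths were used, and the effect on shares and levels per length was not tested.

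The members and lists were chosen with earlier results of these data known. Named by rule were the members, EWSR1, FLI1, up to 4 genes of smallest adjusted p per list, and 3 alike genes for each of 3 members. GADD45B, CAV1, THBS1, PECAM1 and CD3E were named from their lists outside that rule. Another 26 genes were named after their values were seen. These include the genes that fell or did not pass, and EGR1, MAPK8, MMP1 and DUSP1. Alternatives were other scalings, filters and tests (DESeq2 1.42.0, limma-voom 3.58.1), unrounded counts, a replicate term and leaving out each library. The values of 1 gene of the bZIP list are not reported here.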

Additional observations from a re-analysis of the deposited data

How the results depend on the processing

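All 10 AP-1 subunit genes rose, and none fell, under each of the 15 alternatives, giving 150 of 150 positive log2 fold changes past the threshold. Deviations of same-numbered libraries from their group means correlated at -0.27, -0.09 and -0.01 over 11699 genes. Those of differently numbered libraries ran from -0.32 (knockout 3 with parental 2) to 0.29 (knockout 1 with parental 2). With so few libraries per genotype, these values cannot decide whether the libraries were paired. With a replicate block 10 subunit genes rose and no call on the subunits changed.

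With total counts only, 3 other bZIP genes rose and 4 fell, 5 MAP kinase route genes rose and 11 fell, 2 phosphatase genes fell, 0 turnover genes rose and 4 fell, and 8 immediate-early genes fell. That scaling reversed FLI1 (-0.040), ITCH (-0.13), FBXW7 (-0.31), EGR1 (-0.032), MAPK8 (-0.11), IER5 (-0.40), MAP3K1 (-0.28) and MAP2K7 (-0.37), by the shift of -0.42 that it puts on all genes; over all genes 7370 then rose and 14949 fell, 33.02% of calls higher in place of 49.1%. With upper quartile factors (shift -0.20), 4 other bZIP genes rose, 0 turnover genes rose and 2 fell, 8 immediate-early genes fell, IER5 and MAP2K7 turned to -0.19 and -0.15, and 40.5% of all calls were higher. Requiring at least 1 CPM in 3 libraries left 15383 genes, with 6650 rises and 6975 falls, 0 fallen phosphatases and 2 fallen turnover genes. With no filter 2 turnover genes fell. With DESeq2 size factors, the DESeq2 Wald test or limma-voom 2 turnover genes rose. Leaving out 1 library gave 1 to 2 risen turnover genes (2 without knockout replicate 1 or 3, or parental replicate 1 or 2) and 1 to 2 fallen bZIP genes (2 without knockout replicate 1); without knockout replicate 3, TIMP1 no longer passed and 3 known targets fell in place of 4.

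Dividing counts by transcript length changed the differences in family share, knockout minus parental, to 29.001 percentage points for JUN, 8.96 for JUNB, -38.0 for JUND, -57.3 for FOS, -3.29 for FOSB and 50.2 for FOSL2, and turned that of FOSL1 to 10.4 in place of -1.92. Depth did not limit the subunits, the lowest of which, BATF3, had 493 counts or more in every library.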
